A study of Mus musculus with 26 samples.

Results

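The 10 genes described here make and load the class I molecules of the mouse major histocompatibility complex (MHC), and were taken by name from a table of 40413 genes measured in the left ventricle. They are 5 heavy chain genes (H2-K1, H2-D1, H2-Q4, H2-Q6 and H2-Q7), the light chain gene B2m, the peptide transporter gene Tap1, the tapasin gene Tapbp, and the immunoproteasome subunit genes Psmb8 and Psmb9. All 10 were in the table, and all 10 passed the filter on low counts that left 15543 genes. Polyadenylated RNA was sequenced from 26 libraries of 2 inbred strains of adult mice, BPH/2J with high and BPN/3J with normal blood pressure. BPH_Cmpd17b had 7 libraries from BPH/2J mice that received Cmpd17b, a formyl peptide receptor agonist, at 50 mg/kg daily by intraperitoneal injection over 28 days, and BPH_vehicle had 7 from BPH/2J mice on vehicle. BPN_Cmpd17b had 5 libraries from BPN/3J mice on the same dose, and BPN_vehicle had 7 from BPN/3J mice on vehicle. Ages in weeks, sex and the strains' H2 haplotypes were not given in the sources used here. The strains differ throughout the genome as well as in blood pressure, so a strain difference cannot be told apart from one that goes with hypertension.

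A class I molecule is a heavy chain paired at the cell surface with the light chain beta-2-microglobulin. Its groove holds a short peptide that T cells and natural killer cells inspect. The peptides are cut by the proteasome, whose catalytic subunits are replaced by Psmb8, Psmb9 and Psmb10 in the immunoproteasome. They are pumped into the endoplasmic reticulum by the transporter of Tap1 and Tap2, and loaded with the help of tapasin. H2-K1 and H2-D1 are classical heavy chains, present on nearly all nucleated cells, while the H2-Q genes encode nonclassical ones, and H2-Q6 and H2-Q7 are among the genes of the Qa-2 antigen. In the heart, class I genes are known to be high in endothelial and immune cells and low in cardiomyocytes, and interferon gamma, acting in part through the transactivator Nlrc5, is known to raise them.

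The promoters of 5 members are given as examples from the 8 that were called lower in BPH/2J below: 3 heavy chains, whose promoters are alike, the light chain and the transporter. Each sequence is the RefSeq window (build GRCm38.p6) from 250 bases before to 50 after the start of the gene, 5′ to 3′ on the gene's own strand. Capitals mark matches on either strand to GAAANNGAAA (a strict form of the interferon-stimulated response element), TTCNNNGAA (the interferon gamma activated site), GGGANNNNCC (the kappa B site) and CCAAT, which reads ATTGG on the other strand. The windows are chr17:34000298-34000597 (minus strand) for H2-K1, chr17:35262844-35263143 (plus) for H2-D1, chr17:35424600-35424899 (plus) for H2-Q6, chr2:122147437-122147736 (plus) for B2m and chr17:34187306-34187605 (plus) for Tap1.
H2-K1: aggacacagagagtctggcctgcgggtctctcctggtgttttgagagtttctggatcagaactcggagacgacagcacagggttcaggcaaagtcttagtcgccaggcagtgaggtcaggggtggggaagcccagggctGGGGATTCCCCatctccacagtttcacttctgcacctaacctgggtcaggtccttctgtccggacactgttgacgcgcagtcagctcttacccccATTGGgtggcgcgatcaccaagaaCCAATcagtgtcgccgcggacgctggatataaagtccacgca
H2-D1: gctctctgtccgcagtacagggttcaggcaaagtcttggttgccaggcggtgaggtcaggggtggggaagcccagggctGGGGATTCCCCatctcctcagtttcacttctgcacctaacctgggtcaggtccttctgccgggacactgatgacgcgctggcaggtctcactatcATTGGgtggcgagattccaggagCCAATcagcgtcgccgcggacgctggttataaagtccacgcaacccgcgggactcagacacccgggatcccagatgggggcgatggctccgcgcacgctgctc
H2-Q6: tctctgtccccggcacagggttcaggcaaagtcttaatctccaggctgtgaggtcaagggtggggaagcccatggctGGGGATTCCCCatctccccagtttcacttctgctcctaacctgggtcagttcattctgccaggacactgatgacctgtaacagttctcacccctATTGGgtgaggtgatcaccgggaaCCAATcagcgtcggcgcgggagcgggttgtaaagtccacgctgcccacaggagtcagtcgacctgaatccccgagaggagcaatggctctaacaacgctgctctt
B2m: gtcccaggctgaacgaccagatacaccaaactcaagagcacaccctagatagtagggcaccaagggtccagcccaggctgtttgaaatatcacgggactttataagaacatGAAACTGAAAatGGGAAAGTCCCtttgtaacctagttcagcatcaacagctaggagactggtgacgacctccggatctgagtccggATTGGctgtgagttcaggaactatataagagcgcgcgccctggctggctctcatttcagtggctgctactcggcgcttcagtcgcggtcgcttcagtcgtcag
Tap1: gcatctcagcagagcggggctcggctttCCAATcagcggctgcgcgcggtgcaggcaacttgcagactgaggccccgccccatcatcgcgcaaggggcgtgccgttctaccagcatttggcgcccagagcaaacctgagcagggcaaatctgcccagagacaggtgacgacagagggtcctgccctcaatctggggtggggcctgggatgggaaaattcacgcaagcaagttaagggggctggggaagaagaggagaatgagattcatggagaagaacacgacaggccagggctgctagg

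All 10 members had a window among 32851 in the RefSeq table. The 5 heavy chain windows share the run acagggttcaggcaaagtctt, 21 bases long, which is found in 6 of the 32851 windows and in none of the other 5 members' windows. The kappa B letters were in 6 of 10 member windows (the 5 heavy chains and B2m), against 20.7% of all windows. In H2-K1, H2-D1, H2-Q6 and B2m they match on both strands at overlapping positions, and in H2-Q4 on both strands at the same position. CCAAT was in 9 of 10 member windows, against 37.4% of all windows. The strict letters of the interferon-stimulated response element were in 1 window, that of B2m, against 3.44% of all. Looser forms of this element were not searched, so a window without these letters, as of the heavy chains, may still hold one. The interferon gamma activated site letters were in 1 window, that of Psmb8, against 8.3% of all. The starts of Tap1 and Psmb9 lie 226 bases apart on opposite strands, and their windows share 275 bases. The CCAAT match of Tap1 and that of Psmb9 are the same site. The heavy chain promoters are alike too, so the member windows with CCAAT or kappa B letters are not separate observations. These matches describe letters and not binding.

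Total counts per library ran from 25476100 to 48648200, and levels are given in CPM, a gene's count relative to its library's TMM-scaled total. The library labelled BPH_Cmpd17b replicate 7 did not carry a ventricular profile. Its 10 cardiomyocyte markers summed to 43.3 CPM, where the other 25 libraries had 50500 to 74600 CPM, and its 9 kidney markers to 26200 CPM, where the others had 0.822 to 157 CPM. It was left out, so BPH_Cmpd17b has 6 libraries below. A second library stood apart within its group. In BPN_vehicle replicate 7 the 10 endothelial markers summed to 1640 CPM, against 646 to 785 CPM in the other 6 BPN_vehicle libraries, and each of the 10 was at its highest of the 25 libraries. The member and summed heavy chain comparisons with BPN_vehicle are given again without it, with 24 libraries. By the labels, batch 1 has 20 libraries, among them all of BPN_Cmpd17b, and batch 2 has the other 6. Each library was a separate mouse by its title, so p-values measure the spread between mice.

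Levels differed widely between the members. On the scale of CPM per kilobase of exon, B2m stood highest in all 4 groups, with medians of 131 in BPH_Cmpd17b, 140 in BPH_vehicle, 226 in BPN_Cmpd17b and 256 in BPN_vehicle. H2-D1 followed with medians of 44.4, 48.5, 72.7 and 77.0 CPM per kilobase in the same 4 groups, and H2-K1 with 38.0, 42.9, 74.9 and 75.8. By median H2-K1 was the higher in BPN_Cmpd17b, and H2-D1 in the remaining groups. The ranges of H2-D1 and H2-K1 overlapped in each group. Both genes were measured in the same libraries, so overlapping ranges do not settle their order. In BPH_vehicle the count ratio of H2-K1 over H2-D1 ran from 0.543 to 0.703. With exons of 1730 bases for H2-K1 and 2256 for H2-D1, H2-D1 was above H2-K1 per kilobase in every BPH_vehicle library. Each of the remaining groups held libraries of both orders. Tapbp (18.4 in BPH_vehicle, 21.1 in BPN_vehicle) and H2-Q4 (10.8 and 19.6) came next. Their ranges were apart in BPH_vehicle and overlapped in BPN_vehicle. Psmb8, Psmb9, Tap1, H2-Q6 and H2-Q7 had medians between 0.949 and 6.15 CPM per kilobase in BPH_vehicle and between 3.23 and 8.31 in BPN_vehicle. H2-Q7 was the lowest member by median in each of the 4 groups. Its range lay below those of all other members in BPH_vehicle only, and overlapped another member's in the remaining groups.

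The comparison of BPH_vehicle with BPN_vehicle asked how the hypertensive strain's ventricle differed without the drug. Class I transcripts were lower in BPH/2J. All 5 heavy chains, B2m, Tap1 and Psmb8 passed the test, 8 of 10 members, and none was higher. Of all genes tested, 18.9% were called in either direction and 9.73% were called lower. The members' median log2 difference was -0.88, against -0.00 over all genes, and all 10 members lay below 0.

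H2-K1 had a lowest, median and highest level of 57.1, 74.2 and 92.7 CPM in BPH_vehicle, against 98.1, 131 and 248 CPM in BPN_vehicle. Every BPH_vehicle library lay below every BPN_vehicle library, and the log2 difference was -0.96 ± 0.19 (SE, edgeR adjusted p = 0.000441). The share of all tested genes whose groups lie apart in this way is not given, here or below. Groups without overlap therefore only describe each member. H2-D1 had 97.7, 109 and 142 CPM in BPH_vehicle, against 153, 174 and 361 CPM in BPN_vehicle. Again the groups did not overlap, with a log2 difference of -0.79 ± 0.16 (adjusted p = 0.000481). H2-Q4 had 16.9, 19.3 and 23.7 CPM in BPH_vehicle, against 24.5, 35.2 and 69.7 CPM in BPN_vehicle. The groups were apart, by -0.89 ± 0.19 (adjusted p = 0.000918).

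H2-Q6 and H2-Q7, both Qa-2 genes, were lower as well. H2-Q6 had 3.46, 4.51 and 6.50 CPM (lowest, median, highest) in BPH_vehicle, against 9.83, 12.8 and 16.96 CPM in BPN_vehicle. The 7 BPH_vehicle libraries lay below all 7 BPN_vehicle libraries, with a log2 difference of -1.38 ± 0.22 (adjusted p = 4.28e-05). H2-Q7 had 1.07, 1.46 and 2.39 CPM in BPH_vehicle, against 3.65, 4.96 and 12.8 CPM in BPN_vehicle. There was no overlap here either (-1.89 ± 0.51, adjusted p = 0.00968). The heavy chains are near-identical in places: of all 150-base windows of the transcripts, 5.99% of H2-Q6 and 8.44% of H2-Q7 are found in the other of this pair, 1.79% of H2-D1 in H2-Q1, 8.39% of H2-Q4 in the gene Gm11131 and 0% of H2-K1 in any other gene. Deposited values more than 0.01 from a whole number were seen for H2-K1 in 25 of 26 libraries and for H2-Q6 in 26 of 26, as when reads are shared out between copies, so the split between these genes is uncertain. The 5 heavy chains were therefore also added into 1 feature. Their sum was 183, 213 and 263 CPM (lowest, median, highest) in BPH_vehicle, against 289, 358 and 708 CPM in BPN_vehicle, a log2 difference of -0.88 ± 0.17 (adjusted p = 0.000284). Reads shared with genes outside the 5, such as Gm11131 and H2-Q1, stay uncertain in this sum.

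B2m, the light chain shared by all of these heavy chains, lies outside the MHC on chromosome 2. It had 108, 120.2 and 164 CPM (lowest, median, highest) in BPH_vehicle, against 198, 219.8 and 425 CPM in BPN_vehicle. Light chain levels thus did not overlap between the 2 vehicle groups, and the log2 difference was -0.91 ± 0.19 (adjusted p = 0.000855). Tap1, which carries peptides across the membrane of the endoplasmic reticulum, had 5.06, 6.51 and 7.78 CPM in BPH_vehicle, against 7.41, 9.81 and 21.9 CPM in BPN_vehicle. Of the 7 BPN_vehicle libraries, 6 lay above all of BPH_vehicle (-0.87 ± 0.21, adjusted p = 0.00387). Tapbp, whose product holds empty class I molecules at the transporter, had 52.2, 57.1 and 59.2 CPM in BPH_vehicle, against 51.4, 65.4 and 86.0 CPM in BPN_vehicle. It did not pass the test (-0.19 ± 0.07, 95% interval -0.35 to -0.04, adjusted p = 0.0722).

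Of the 2 immunoproteasome members, Psmb8 passed the test and Psmb9 did not. Psmb8, whose subunit takes the place of Psmb5, had 8.43, 10.3 and 13.1 CPM (lowest, median, highest) in BPH_vehicle, against 11.4, 13.9 and 36.1 CPM in BPN_vehicle. Its groups overlapped, and the log2 difference was -0.66 ± 0.20 (adjusted p = 0.0234). Psmb9, whose subunit takes the place of Psmb6, had 4.16, 6.12 and 7.61 CPM in BPH_vehicle, against 5.33, 7.41 and 15.7 CPM in BPN_vehicle. Its groups overlapped too (-0.53 ± 0.21, adjusted p = 0.08). Leaving out 1 library moved calls of these 2 genes and of Tapbp. Psmb8 was not called without BPH_vehicle replicate 4 (-0.61, adjusted p = 0.0516, with 0.0085 to 0.0516 over the 14 libraries left out in turn). Psmb9 was called without BPN_vehicle replicate 4 (-0.62, adjusted p = 0.0424, range 0.0424 to 0.262). Tapbp was called without BPH_vehicle replicate 7 or BPN_vehicle replicates 2 or 6 (range 0.0391 to 0.159). The other 7 members were called whichever of the 14 libraries was left out. In 4 of 10 alternative settings Psmb8 was not called: all 26 libraries, no filter, limma voom and batch 2 alone. Tapbp was called in 3 of 10: batch 1 alone, DESeq2, and with the libraries high in albumin RNA left out. The call of Psmb9 changed in 0 of 10.

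**Figure D1:**
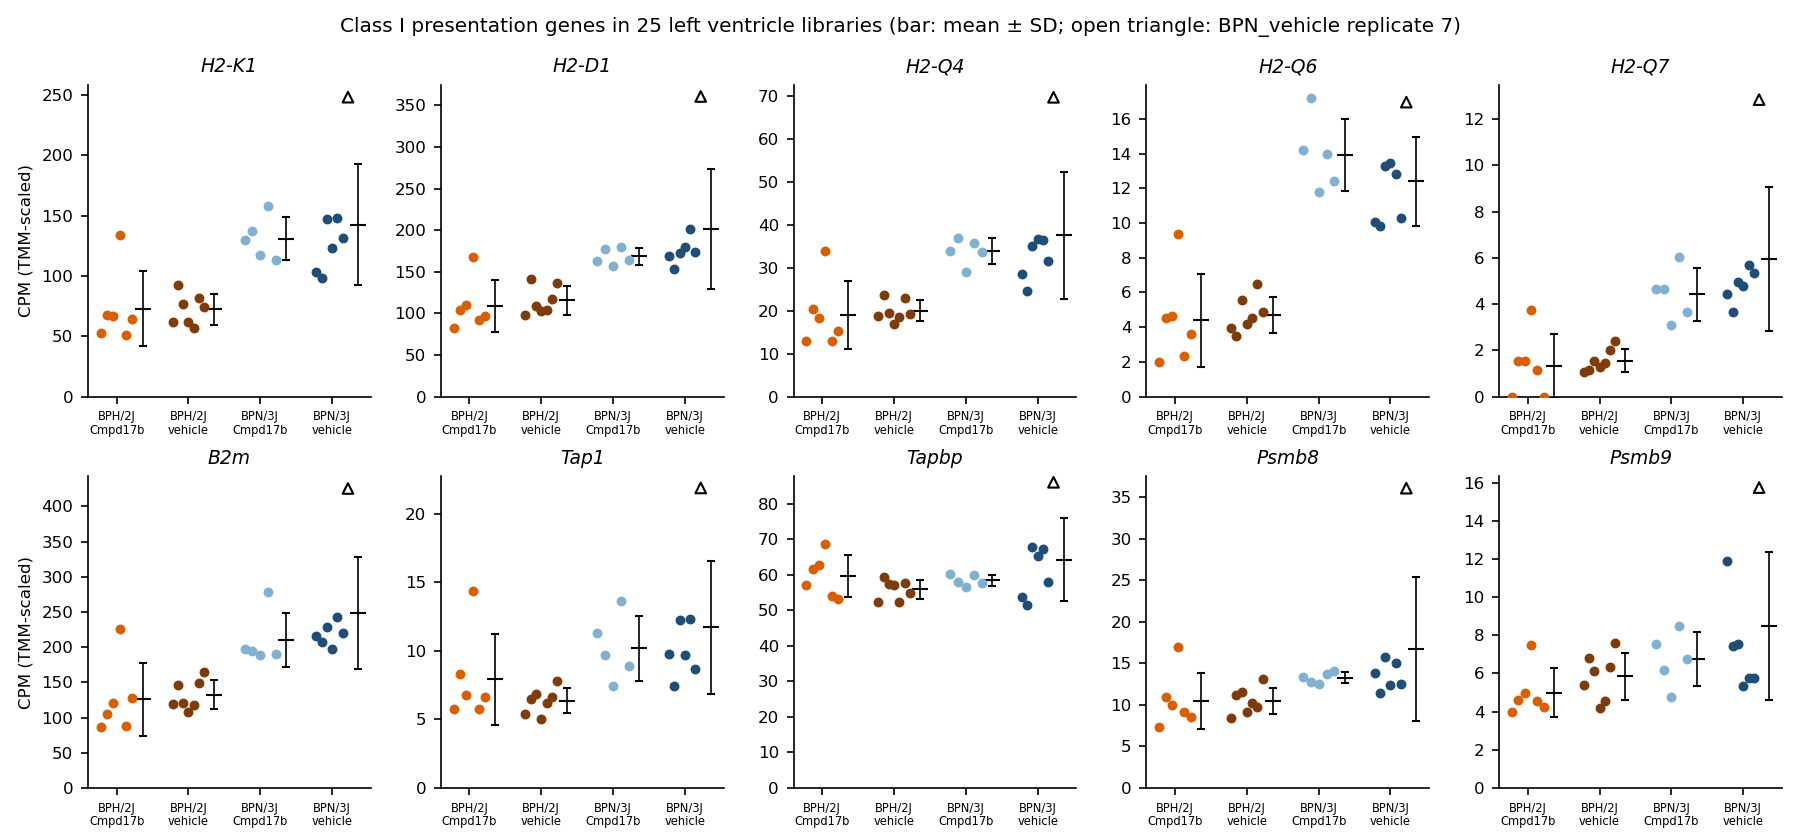
Level of each member in each of 25 left ventricle libraries, in TMM-scaled CPM on a linear axis from 0, by group, with the mean and SD beside the points. The 7 BPH_vehicle points lie below all 7 BPN_vehicle points for the 5 heavy chains and B2m, and the share of all genes that lie apart in this way is not given. The open triangle marks BPN_vehicle replicate 7, the highest of the 25 in 9 of 10 members.

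BPN_vehicle replicate 7 was the highest library of its group in all 10 members. Without it the strain difference was smaller and the same 8 genes were called: H2-K1 differed by -0.79 (adjusted p = 0.00224), H2-D1 by -0.60 (adjusted p = 0.000502), H2-Q6 by -1.30 (adjusted p = 0.000269) and B2m by -0.73 (adjusted p = 0.00387). H2-Q4 (-0.69), H2-Q7 (-1.63), Tap1 (-0.66) and Psmb8 (-0.37, adjusted p = 0.0487) were called too. Tapbp (-0.12, adjusted p = 0.127) and Psmb9 (-0.28, adjusted p = 0.262) were not. The members' median was -0.68, against 0.01 over all genes, of which 24.2% were called and 12.5% were called lower. The summed heavy chains differed by -0.70 ± 0.14 (adjusted p = 0.000695).

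Both batches had the summed heavy chains below 0, by -1.03 in batch 1 alone (5 libraries against 5, adjusted p = 0.00103) and by -0.52 in batch 2 alone (2 against 2, adjusted p = 0.081). In batch 2 H2-K1 and H2-Q6 were called, and not H2-D1 (-0.46, adjusted p = 0.151), H2-Q4 (-0.47, adjusted p = 0.0886), H2-Q7 (-1.22, adjusted p = 0.0926), B2m (-0.58, adjusted p = 0.0609), Tap1 (-0.38, adjusted p = 0.413) or Psmb8 (-0.23, adjusted p = 0.628). Hepatocyte transcripts, led by albumin (Alb), summed to 0.62 to 4.59 CPM in BPH_vehicle, against 0.295 to 573 CPM in BPN_vehicle, and all 5 tested were lower in BPH/2J, Alb by -5.34 (adjusted p = 0.00677). With the 3 BPN_vehicle libraries above 10 CPM of Alb left out, the summed heavy chain difference was -1.07 (adjusted p = 0.000524) with 4 BPN_vehicle libraries left. BPN_vehicle replicate 7, in batch 1 and with 0 CPM of Alb, is kept in this fit and in that of batch 1 alone. Its summed heavy chains were 708 CPM, against 289 to 404.5 CPM in the rest of its group, and batch 2 does not hold it.

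Among mice on Cmpd17b, the strain comparison asked whether the difference was present under the drug. Of the 5 heavy chains 4 were again lower in BPH/2J, as was B2m, and H2-Q7 and the loading and proteasome genes did not pass the test. H2-K1, H2-D1, H2-Q4, H2-Q6 and B2m were called, 5 of 10 members, with none higher. Of all genes, 14.1% were called and 6.65% were called lower. The members' median was -0.66, against 0.01 over all genes.

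H2-K1 had a lowest, median and highest level of 51.0, 65.8 and 134 CPM in the 6 BPH_Cmpd17b libraries, against 129.6, 137, 117, 158 and 113 CPM in the 5 BPN_Cmpd17b libraries. All but 1 BPH_Cmpd17b library lay below BPN_Cmpd17b, and the log2 difference was -0.79 ± 0.21 (adjusted p = 0.0112). H2-Q6 had 1.97, 4.05 and 9.39 CPM in BPH_Cmpd17b, against 14.2, 17.2, 11.8, 13.99 and 12.4 CPM in BPN_Cmpd17b. It was the member whose groups did not overlap under the drug (-1.60 ± 0.25, adjusted p = 4.04e-05). B2m had 86.8, 113 and 226 CPM in BPH_Cmpd17b, against 197, 194, 188, 278 and 190.3 CPM in BPN_Cmpd17b. As for H2-K1, 5 of the 6 BPH_Cmpd17b libraries lay below BPN_Cmpd17b (-0.73 ± 0.21, adjusted p = 0.0213).

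H2-D1 ran from 82.1 to 168 CPM in BPH_Cmpd17b, against 157.5 to 180.3 CPM in BPN_Cmpd17b (-0.60 ± 0.18, adjusted p = 0.022). H2-Q4 ran from 13.0 to 34.0 CPM in BPH_Cmpd17b, against 29.0 to 36.85 CPM in BPN_Cmpd17b (-0.78 ± 0.21, adjusted p = 0.0119). H2-Q7 was listed at 0 in 2 BPH_Cmpd17b libraries and had 1.54, 1.54, 3.74 and 1.16 CPM in the other 4, against 4.67, 4.645, 3.07, 6.05 and 3.67 CPM in BPN_Cmpd17b. This gene just missed the threshold (-1.68 ± 0.57, adjusted p = 0.0504), and it was called without BPN_vehicle replicate 7 (-1.69, adjusted p = 0.0364). Tap1 (-0.32, adjusted p = 0.456), Tapbp (0.06, adjusted p = 0.722), Psmb8 (-0.30, adjusted p = 0.471) and Psmb9 (-0.45, adjusted p = 0.254) did not pass. Their intervals reached -0.81 for Tap1, -0.11 for Tapbp, -0.78 for Psmb8 and -0.95 for Psmb9, so the differences seen under vehicle lay inside the intervals of Psmb8 and Psmb9 and outside those of Tap1 and Tapbp. For Tap1 this depended on the libraries used: with 24 libraries its vehicle difference of -0.66 lay inside its interval under the drug (-0.76 to 0.09), and without BPH_Cmpd17b replicate 4 it differed by -0.58 under the drug (adjusted p = 0.0809). The test of the change itself, the strain by drug interaction, did not call Tap1 (0.55 ± 0.32, adjusted p = 0.917) or Tapbp (0.25 ± 0.11, adjusted p = 0.917), nor with 24 libraries (0.33 for Tap1 and 0.18 for Tapbp, both with an adjusted p of 1).

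Leaving out 1 library moved some adjusted p-values across the threshold with differences near those above. B2m was not called without BPH_Cmpd17b replicate 1 (adjusted p = 0.0548), 2 (0.0512) or 5 (0.0543) or BPN_Cmpd17b replicate 4 (0.079), and H2-D1 was not called without BPH_Cmpd17b replicate 1 (0.0595) or 5 (0.0545) or BPN_Cmpd17b replicate 4 (0.051). Where the call was lost, the difference was -0.606 to -0.677 for B2m and -0.525 to -0.575 for H2-D1. Over the 11 libraries left out in turn, the adjusted p of B2m ran from 0.000281 to 0.079 and that of H2-D1 from 0.00187 to 0.0595. H2-Q7 was called without BPH_Cmpd17b replicate 1 (-1.41, adjusted p = 0.0493) or 4 (-2.34, adjusted p = 0.00518). The summed heavy chains differed by -0.73 ± 0.19 (adjusted p = 0.00876) and by -0.74 with the fit held to these 2 groups (adjusted p = 0.055). That fit did not call H2-K1 (-0.82, adjusted p = 0.0774), H2-Q4 (-0.78, adjusted p = 0.0736) or B2m (-0.74, adjusted p = 0.115). With 24 libraries the sum differed by -0.74 (adjusted p = 0.00125), and 6 members were called lower. Of all genes, 20.1% were then called and 10.2% were called lower.

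**Figure D2:**
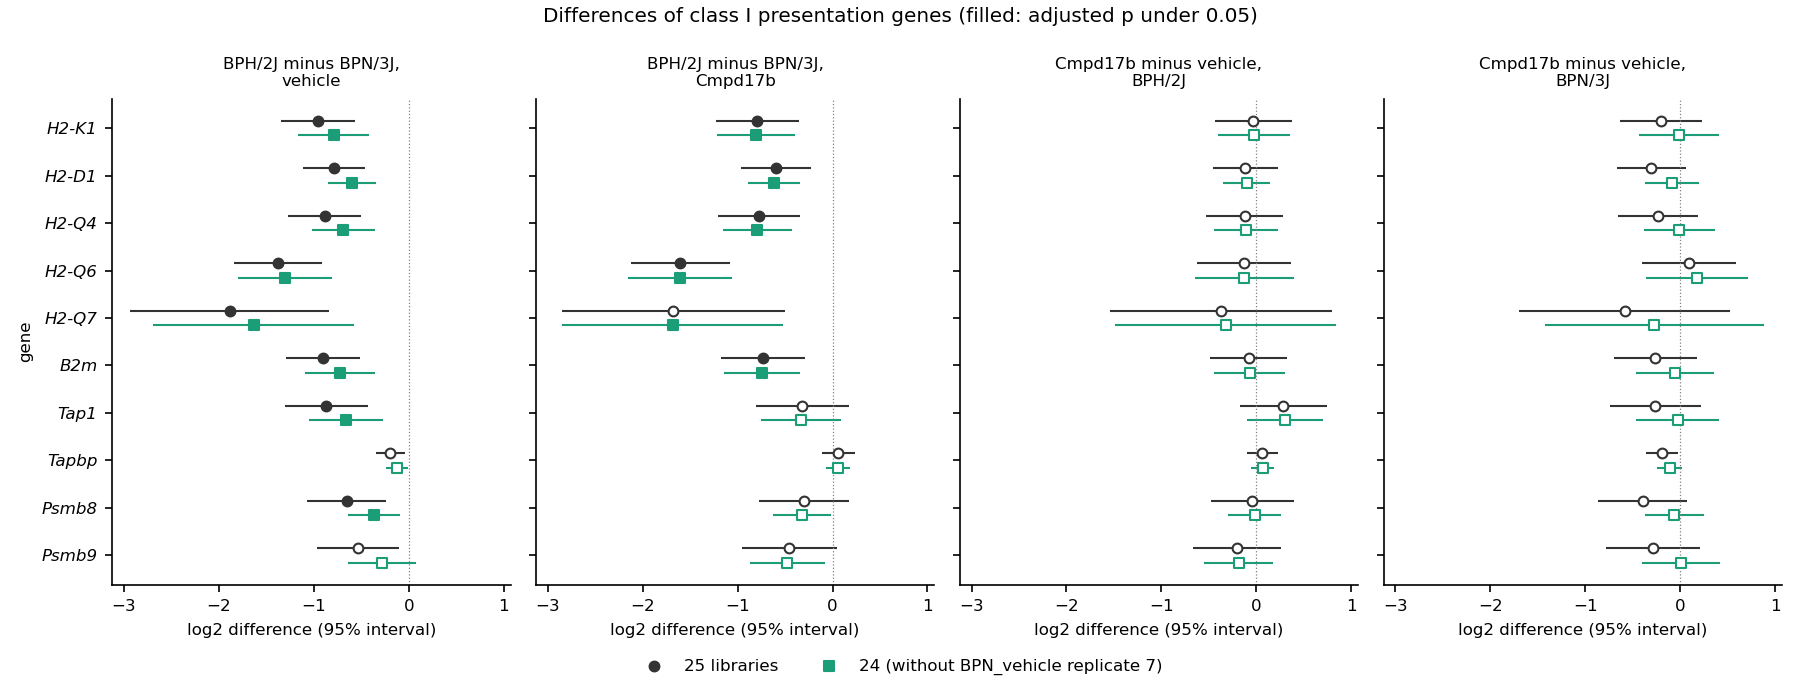
Log2 difference of each member with its 95% interval, for BPH/2J minus BPN/3J under vehicle and under Cmpd17b and for Cmpd17b minus vehicle in each strain, with 25 libraries (circles) and with 24 (squares); filled symbols have an adjusted p under 0.05. Heavy chains and B2m lie left of 0 in both strain panels, and no symbol is filled in the 2 drug panels.

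The effect of Cmpd17b was compared with vehicle in each strain. No member was called in either. In BPH/2J the members' median log2 difference was -0.10, against 0.00 over all genes. By edgeR 0% of genes were called, and 0 members and 287 of all genes had an unadjusted p under 0.05. DESeq2 and limma voom called 0 members and 0 genes as well. The summed heavy chains were 149, 189 and 349.5 CPM (lowest, median, highest) in BPH_Cmpd17b, against 183, 213 and 263 CPM in BPH_vehicle. The drug group held both the lowest and the highest of these libraries, and the log2 difference was -0.09 (95% interval -0.45 to 0.27). Its highest library, BPH_Cmpd17b replicate 4, was the highest of its group in all 10 members and lay within or above the BPN/3J range in 9 of them, H2-Q6 being the exception. Without it the summed heavy chain difference was -0.29 (adjusted p = 1).

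In BPN/3J the members' median under Cmpd17b was -0.26, against -0.01 over all genes. By edgeR 0% of genes were called, and 1 member, Tapbp, and 1506 of all genes had an unadjusted p under 0.05. DESeq2 called 0 members and 1 gene, and limma voom called 0 of either. The summed heavy chains were 318.5 to 394 CPM in BPN_Cmpd17b, against 289 to 708 CPM in BPN_vehicle, a log2 difference of -0.25 (95% interval -0.64 to 0.14, adjusted p = 0.627). Without BPN_vehicle replicate 7 the difference was -0.04 (95% interval -0.38 to 0.30, adjusted p = 0.973), the members' median was -0.04, and 0% of genes were called. The strain by drug interaction, which asks whether the drug effects differ between the strains, called 0 members and 0% of genes by edgeR, by which 1 member (Tapbp) and 595 of all genes had an unadjusted p under 0.05. DESeq2 and limma voom called 0 members as well. The 2 drug contrasts share no libraries, but each shares its libraries with the strain contrasts.

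The members' deviations from their group means were positively correlated. Over the 45 pairs of members, the Spearman correlation of deviations from the group means had a median of 0.674 (0.339 to 0.86) across 25 libraries and of 0.628 (0.194 to 0.854) across 24. These points share library, depth, batch and, for the heavy chains, reads, and both sets hold BPH_Cmpd17b replicate 4. Batch was not taken out of the deviations. Other pairs of genes were not compared. Psmb9 made up the lowest pairs, at 0.194 with Tapbp and 0.242 with H2-Q6 across 24 libraries. The genes outside the members with deviations most like the members' mean were H2-T22 (0.798) and H2-T23 (0.776), which are nonclassical class I genes, Tgtp2 (0.787), an interferon-inducible GTPase, Lrrc27 (0.779) and Nosip (0.773), across 25 libraries. Across 24 they were Gemin2 (0.794), H2-T23 (0.769), Lrrc27 (0.753), H2-T22 (0.73) and Tgtp2 (0.728).

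Ratios of counts within a library were compared as well, in 20 tests added after the data were seen. Unlike the edgeR fit, these tests have no batch term, and all of BPN_Cmpd17b is in batch 1. The 5 heavy chains over B2m had a lowest, median and highest ratio of 1.45, 1.57 and 1.79 in BPH_vehicle, against 1.39, 1.63 and 1.81 in BPN_vehicle. The groups overlapped fully, with a log2 difference of 0.02 ± 0.07 (SE, exact two-sided permutation p = 0.7401, adjusted p = 0.8521). Over all 4 groups this ratio lay between 1.39 and 1.92, and BPN_vehicle replicate 7 lay among the others of its group. H2-K1 over H2-D1 had medians of 0.629 in BPH_vehicle and 0.688 in BPN_vehicle (-0.18, exact permutation p = 0.04895), and of 0.643 in BPH_Cmpd17b and 0.771 in BPN_Cmpd17b (-0.25, exact permutation p = 0.03463). Both had an adjusted p of 0.3175, and none of the 20 had a lower one. Psmb8 over Psmb5, an immunoproteasome subunit over the one it replaces, had medians of 0.221 in BPH_vehicle and 0.281 in BPN_vehicle (-0.39, exact permutation p = 0.08042, adjusted p = 0.3175). Psmb9 over Psmb6 had medians of 0.0621 in BPH_vehicle and 0.0652 in BPN_vehicle (-0.29, exact permutation p = 0.162, adjusted p = 0.405). Psmb10 over Psmb7 had medians of 0.427 in BPH_vehicle and 0.37 in BPN_vehicle (0.12, exact permutation p = 0.5303, adjusted p = 0.7955). Under Cmpd17b its medians were 0.417 in BPH_Cmpd17b and 0.336 in BPN_Cmpd17b, with 5 of 6 BPH_Cmpd17b libraries above all of BPN_Cmpd17b (0.34, exact permutation p = 0.02597, adjusted p = 0.3175). Psmb8 over Psmb5 (-0.37, exact permutation p = 0.09524) and Psmb9 over Psmb6 (-0.41, exact permutation p = 0.06494) had the same adjusted p under the drug. Without BPN_vehicle replicate 7 the vehicle differences were -0.22 for Psmb8 over Psmb5 (exact permutation p = 0.1608), -0.19 for Psmb9 over Psmb6 (exact permutation p = 0.324), 0.22 for Psmb10 over Psmb7 (exact permutation p = 0.1923) and -0.19 for H2-K1 over H2-D1 (exact permutation p = 0.06177). Batch 1 alone keeps BPN_vehicle replicate 7, the highest of BPN_vehicle in Psmb8 over Psmb5 (0.586) and in Psmb10 over Psmb7 (0.5625). In batch 1 alone Psmb8 over Psmb5 differed by -0.51 under vehicle (exact permutation p = 0.02381). There Psmb10 over Psmb7 differed by 0.42 between the strains under Cmpd17b (exact permutation p = 0.007937). For Cmpd17b in BPN/3J it differed by -0.29 (exact permutation p = 0.04762). The lowest adjusted p of the 20 in batch 1 was 0.1587.

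**Figure D3:**
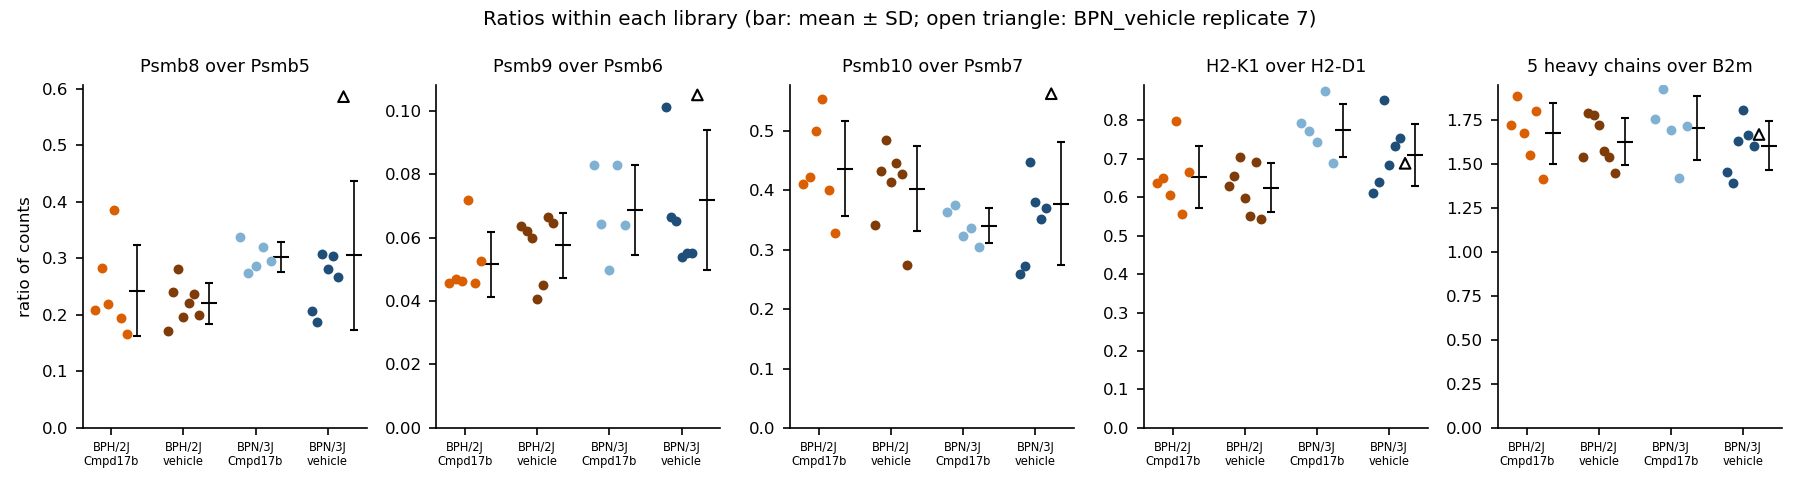
Ratio of counts within each of 25 libraries, on linear axes from 0, by group, with the mean and SD beside the points and BPN_vehicle replicate 7 as an open triangle. The heavy chain to B2m ratio lies between 1.39 and 1.92 in all groups, while Psmb8 over Psmb5 is highest in the library of the triangle, at 0.586.

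Other genes of the pathway were counted under vehicle from lists of the peptide loading, proteasome and heavy chain genes. Of 16 other heavy chain genes tested, 8 were lower and 1 was higher in BPH/2J, with a median of -0.56. H2-Q8, another Qa-2 gene, had 2.33 ± 1.20 CPM (SD, n = 7) in BPH_vehicle and 7.94 ± 7.49 CPM (n = 7) in BPN_vehicle (-1.70, adjusted p = 0.0138). H2-Q5 differed by -1.59 (adjusted p = 0.000501) and H2-K2 by -1.04 (adjusted p = 0.00134). H2-Q10, whose product is secreted by mouse liver, differed by -2.11 (adjusted p = 3.82e-05), and its BPN_vehicle range reached 9.91 CPM. Some BPN_vehicle libraries held hepatocyte transcripts, and their part in the H2-Q10 difference was not tested. Of 15 other peptide loading genes 1 was lower, Tap2, the partner of Tap1 (-0.30, adjusted p = 0.0234), and 1 was higher, the aminopeptidase gene Npepps (0.46, adjusted p = 0.000384), with a median of 0.02. Of 5 other immunoproteasome and activator genes 1 was lower, the assembly factor gene Pomp (-0.26, adjusted p = 0.0245). None of the 3 subunits that the immunoproteasome replaces was called, and of 11 core subunits 1 was higher, Psma7 (0.24, adjusted p = 0.0274).

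Nlrc5, the transactivator of class I genes, was lower in BPH/2J. It had 2.07 ± 0.53 CPM (SD, n = 7) in BPH_vehicle and 5.499 ± 2.64 CPM (n = 7) in BPN_vehicle, where replicate 7 was at 10.9 CPM (-1.39 ± 0.34, adjusted p = 0.00373). All 7 BPH_vehicle libraries, which reached 2.97 CPM, lay below the BPN_vehicle libraries, which began at 3.02 CPM, and without replicate 7 the difference was -1.15 (adjusted p = 0.0147). Of the 21 regulators tested, Nlrc5 was the 1 called lower and the interferon receptor gene Ifnar2 (0.30, adjusted p = 0.0018) the 1 called higher, with a median of -0.01. Of 21 genes induced by interferon gamma 10 were lower and 2 higher, with a median of -0.57. Tgtp2 had 6.50 ± 1.88 CPM in BPH_vehicle and 20.9 ± 9.35 CPM in BPN_vehicle (-1.68, adjusted p = 0.00283). Gbp4, a guanylate-binding protein gene, had 10.14 ± 1.21 CPM in BPH_vehicle and 21.8 ± 13.4 CPM in BPN_vehicle (-1.08, adjusted p = 0.00677). Tgtp1 (-1.39, adjusted p = 0.0183) and the chemokine gene Cxcl9 (-1.10, adjusted p = 0.00814) were lower too. Without replicate 7, 20 of the list were tested, and 6 were lower and 2 higher, with a median of -0.43.

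The list's summed level nevertheless overlapped between the strains, at 250 to 295 CPM in BPH_vehicle, against 232 to 482 CPM in BPN_vehicle (305 CPM without replicate 7). It was 539 CPM in BPH_Cmpd17b replicate 4, the library high in class I genes, against 221 to 258 CPM in the other 5 libraries of that group. Of 24 genes induced by type I interferon 1 was lower, Xaf1 (-1.96, adjusted p = 5.83e-12), and 1 was higher, Ifi35 (1.40, adjusted p = 3.73e-09), with a median of -0.09. Of 8 class II genes tested, which present peptides from outside the cell, 4 were lower and none higher, with a median of -1.01. Cd74, the invariant chain, had 28.5 ± 12.6 CPM in BPH_vehicle and 64.8 ± 18.9 CPM in BPN_vehicle (-1.18, adjusted p = 0.0131), and H2-DMb1, a peptide exchanger, differed by -1.25 (adjusted p = 0.0176). H2-Ab1 (-1.06, adjusted p = 0.0267) and H2-Aa (-1.002, adjusted p = 0.0402) were not called without replicate 7 (adjusted p = 0.0538 and 0.0627). In both drug contrasts and the interaction none of these lists had a gene called.

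**Figure D4:**
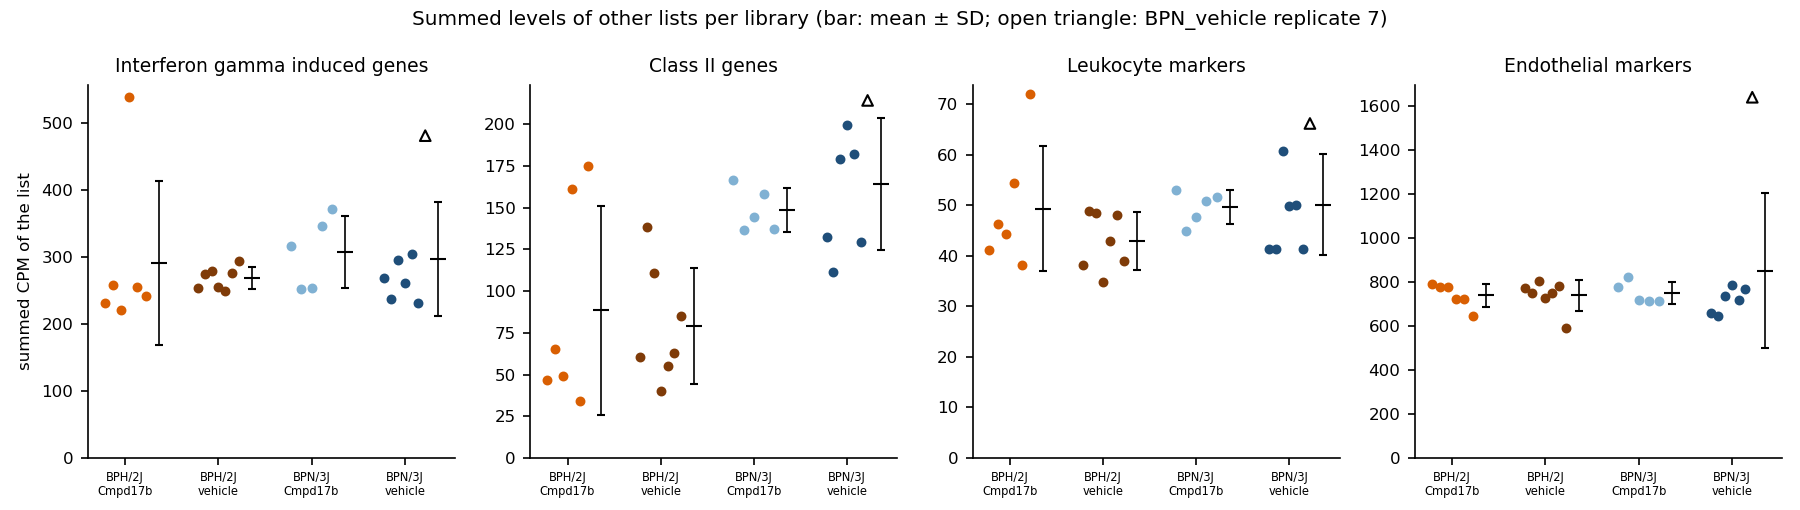
Summed level of 4 lists in each of 25 libraries, in TMM-scaled CPM on linear axes from 0, by group, with the mean and SD beside the points and BPN_vehicle replicate 7 as an open triangle. Class II sums are 34.2 to 175 CPM in BPH/2J libraries and 111 to 214 CPM in BPN/3J libraries, and endothelial sums are 593 to 823 CPM in all libraries except the triangle, at 1640 CPM.

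Cells that carry class I molecules were followed through their markers, since in bulk tissue fewer cells of a type and less RNA per cell cannot be told apart. None of 10 endothelial markers was called between the strains under vehicle (median -0.20, and 0.04 without replicate 7), and their sum was 593 to 805 CPM in BPH_vehicle, against 646 to 785 CPM in the 6 BPN_vehicle libraries other than replicate 7. Of 7 pan leukocyte markers 1 was lower, Arhgdib (-0.72, adjusted p = 3.94e-06), with sums of 34.9 to 48.9 CPM in BPH_vehicle, against 41.3 to 66.2 CPM in BPN_vehicle. Of 12 macrophage and monocyte markers 1 was higher, Mrc1 (0.32, adjusted p = 0.0253), with sums of 128 to 179 CPM in BPH_vehicle, against 132 to 211 CPM in BPN_vehicle. Of 11 T and natural killer cell markers tested 3 were higher, Ncr1 (3.34, adjusted p = 0.000398), Gzma (2.98, adjusted p = 3.18e-06) and Klrb1c (2.82, adjusted p = 0.00492), and 1 was lower, Cd4 (-1.27, adjusted p = 0.000783). That list summed to 3.33 to 6.30 CPM in BPH_vehicle, against 2.31 to 5.40 CPM in BPN_vehicle, and 9 of its 14 genes (Cd3d, Cd3g, Cd5, Cd8a, Nkg7, Gzmb, Ncr1, Klrb1c and Prf1) were at 0 in at least 1 of the 25 libraries. Of 13 genes of receptors and partners of class I on immune cells only 3 were tested, and 1 of these was higher, Pirb (0.51, adjusted p = 0.0334). Of 6 B cell, 6 dendritic cell, 7 kidney and 5 red cell markers tested none was called. Of 10 cardiomyocyte markers 1 was lower, Tnnt2 (-0.26, adjusted p = 0.028), and of 8 fibroblast markers 1, Gsn (-0.58, adjusted p = 5.14e-05). The part of these cell types in the class I difference was not tested.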

How the data were processed

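The authors deposited expected counts for 40413 genes and 26 libraries. The submitters' processing notes name Trim Galore 0.6.7, STAR 2.7.9a and the mouse build GRCm39 (mm39). Which program counted reads, with what annotation and whether by strand, is not given in the sources used here. Overlapping genes and near-identical copies are therefore uncertain. Reads of both strains were aligned to 1 reference, and the effect of allelic differences in the H2 genes on their counts was not tested. Counts were rounded to whole numbers and scaled by TMM. Of the values of tested genes 5.1% lay more than 0.01 from a whole number. No 2 libraries within a group were identical (73 pairs).

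Genes passing filterByExpr were tested in edgeR 4.0.16 under R 4.3.3 (robust quasi-likelihood fit) with a coefficient per group and a batch term on 25 libraries (15543 genes) and on 24 (15489 genes). Benjamini-Hochberg adjustment covered every tested gene, with a threshold of 0.05, and ± after a log2 difference is its standard error. Adjusted p-values are edgeR's unless another tool is named. The fit of BPN_Cmpd17b takes its batch effect from the other groups. Alternatives were DESeq2 1.42.0, limma voom (limma 3.58.1), RLE size factors, no filter, no batch term, 26 libraries, batch 1 alone, only the groups compared, and each library left out in turn. Batch 2 alone, the libraries with Alb above 10 CPM left out, and the count ratios were added after the data were seen. The fit was also run on simulated counts with some genes doubled in both BPH/2J groups, and the outcome is not given here. Named genes are the 10 members, up to 4 called genes of each other list by size of difference, and the 5 genes most like the members (log2 CPM with a pseudocount of 0.5). The members and lists were chosen with earlier results of these data known. RefSeq promoter windows are on GRCm38.p6, and transcript windows are from a GENCODE annotation of the same genome. No coordinates on the build of the counts are given.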

Additional observations from a re-analysis of the deposited data

Results flagged for a closer look

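In 15 of 40 combinations of a member and a group, 1 library lay farther from the others than Dixon's 95% critical value. Chance alone gives this in about 1 of 20 where values are independent, and these are not, since the members' deviations are correlated and 14 of the 15 come from 2 libraries. All 15 were high values, 7 of them in BPH_Cmpd17b replicate 4, 7 in BPN_vehicle replicate 7 and 1 in BPN_Cmpd17b replicate 4.

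BPH_Cmpd17b replicate 4 had 134.2 CPM of H2-K1, against 51.0 to 67.2 CPM in the other 5 libraries of its group. It had 168.2 CPM of H2-D1 (others 82.1 to 111 CPM), 33.96 CPM of H2-Q4 (13.0 to 20.3 CPM) and 9.386 CPM of H2-Q6 (1.97 to 4.61 CPM). B2m stood at 225.7 CPM (86.8 to 128 CPM), Tap1 at 14.38 CPM (5.74 to 8.33 CPM) and Psmb9 at 7.504 CPM (4.003 to 4.997 CPM). Its endothelial markers summed to 724 CPM, inside the range of the group.

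BPN_vehicle replicate 7 had 248.1 CPM of H2-K1, against 98.1 to 148 CPM in the other 6 libraries of its group. It had 360.7 CPM of H2-D1 (others 153 to 202 CPM), 69.68 CPM of H2-Q4 (24.5 to 36.8 CPM) and 12.84 CPM of H2-Q7 (3.65 to 5.68 CPM). B2m stood at 425.4 CPM (198 to 243 CPM), Tap1 at 21.9 CPM (7.41 to 12.3 CPM) and Psmb8 at 36.1 CPM (11.4 to 15.7 CPM). Its endothelial markers summed to 1640 CPM, outside the range of the group, and their part in these values was not tested.

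BPN_Cmpd17b replicate 4 had 278.1 CPM of B2m, against 188 to 197 CPM in the other 4 libraries of its group.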

How the results depend on the processing

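Of 1210 differences of single members recomputed under another setting, 1176 stayed on the same side of the threshold. A call was lost in 22 and gained in 12, and 0 called values changed sign. Counts of genes called and the summed heavy chains are not among the 1210, and those that moved are given next. Among the 1210, 37 changed sign, with neither value called. With 26 libraries 1492 genes were called between the strains under vehicle and 1195 under Cmpd17b, against 2936 and 2197. Batch 2 alone, with 2 libraries a group under vehicle, called 2 members and 1130 genes, and the summed heavy chain difference was -0.519 (adjusted p = 0.081). In batch 2 alone 1 member, H2-Q7, and 122 genes were called for Cmpd17b in BPH/2J, where the drug group is 1 library with H2-Q7 listed at 0. In the fit of only the 2 groups compared, 2 members (H2-D1 and H2-Q6) and 2935 genes were called between the strains under Cmpd17b, against 5 and 2197, and the summed heavy chain difference was -0.736 (adjusted p = 0.055). Without the libraries above 10 CPM of Alb, but with BPN_vehicle replicate 7 kept, 9 members and 2362 genes were called between the strains under vehicle. Limma voom called 3392 genes between the strains under Cmpd17b, and DESeq2 called 1 gene for Cmpd17b in BPN/3J. Leaving out 1 library gave 3 to 6 members in the strain contrast under Cmpd17b, the 3 being without BPH_Cmpd17b replicate 5 or BPN_Cmpd17b replicate 4. The cause of these changes was not tested, beyond the smaller number of libraries in a single batch. No paired analysis was possible because replicate numbers follow the order of the samples and mark no shared animal, litter or day. Drug effects on the summed heavy chains of a size inside the 95% intervals given are not excluded.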

Other observations

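The library labelled BPH_Cmpd17b replicate 7, left out of the comparisons, had 57.7 CPM of H2-K1, 144 CPM of H2-D1, 78.7 CPM of B2m, 3.94 CPM of Tap1, 45.5 CPM of Tapbp, 2.96 CPM of Psmb8 and 2.02 CPM of Psmb9. Its class II genes summed to 79.5 CPM and its pan leukocyte markers to 16.9 CPM, against 34.9 CPM or more for the leukocyte markers in each of the other 25 libraries.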
